A study of Mus musculus with 2 samples.

Results

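The opioid system of the mouse ventral parafacial region, a strip of the medulla that holds neurons involved in the control of breathing, was read out from single-cell RNA sequencing. Its 7 genes were chosen by name. They are the peptide precursor genes *Penk*, *Pdyn* and *Pnoc* and the receptor genes *Oprm1*, *Oprd1*, *Oprk1* and *Oprl1*. They stand among 28692 genes in the count tables, of which 20108 were detected in the cells kept, and all 7 were detected in both libraries. All animals were wild-type mice of the C57BL6/J strain at 10 days of age. Tissue of 8 mice, 4 male and 4 female, went into each of the 2 libraries, which were prepared with version 2 of the 10X chemistry. In batch 1 the mice were untreated. In batch 2 they had received 4OH-tamoxifen, an agent used to switch on inducible Cre recombinases, at 0.2 mg per day for 3 days, and the labels name no Cre allele. With 1 library per condition, treatment, batch and library cannot be told apart and no test between conditions could be made.

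Opioid peptides are cut from larger precursor proteins and released from dense-core vesicles. *Penk* encodes the precursor of the enkephalins, *Pdyn* that of the dynorphins and *Pnoc* that of nociceptin. *Oprm1*, *Oprd1* and *Oprk1* encode the mu, delta and kappa receptors and *Oprl1* the nociceptin receptor, all of which couple to inhibitory G proteins that open potassium channels, close calcium channels and lower cyclic AMP. In the brainstem this system is best known because opioid drugs slow breathing through the mu receptor.

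The libraries held 3767 and 10241 cell barcodes with 18496942 and 34704167 UMIs (unique molecular identifiers, each standing for 1 captured mRNA molecule), untreated first, and 3339 and 8558 cells were kept, with a median of 3628 and 2411 UMIs per cell. The libraries share 40 barcode sequences. Cells were sorted into 12 classes by gate markers, and the 5 neuron classes held 676 cells, 146 untreated and 530 from the 4OH-tamoxifen library. The gates gave 24 and 54 cells in the Nmb class (glutamatergic cells with the marker of the retrotrapezoid nucleus), 17 and 73 in the Slc17a6 class (other glutamatergic cells), 80 and 301 in the Slc32a1 class (inhibitory), 7 and 15 in the Dbh class (catecholaminergic) and 18 and 87 in the Chat class (cholinergic). The separate markers of the inhibitory, catecholaminergic and cholinergic classes were all highest in their own class in both libraries. *Gal* was highest in the Nmb class, whereas *Gpr4*, also on its marker list, was highest in the Cldn5 class and *Slc17a6* in the Slc17a6 class. The Slc17a6 class had no marker list of its own, *Gad2* was found in 13.3% of its cells, and in a clustering of all cells only 7 of its 90 cells fell in clusters of that class and 56 in inhibitory clusters, so its values are those of a gate and not of a type.

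Detection differed widely among the 7 genes. *Pnoc* gave 1210 UMIs in 386 cells, *Oprl1* 879 UMIs in 658 cells and *Penk* 851 UMIs in 259 cells. *Oprk1* followed with 63 UMIs in 57 cells. *Pdyn*, *Oprm1* and *Oprd1* gave 19, 15 and 8 UMIs in all, below the 20 UMIs asked of a gene before ratios were read, so that 4 of the 7 genes passed. The level of a gene in a class is the sum of its UMIs per 1000000 UMIs of that class (counts per 1000000, CPM) with an exact Poisson 95% interval, and all intervals cover counting error only. Levels are compared between classes for each gene and not between genes. The C1qa class (microglia, 342 and 572 cells) stood for free RNA, which gives stray UMIs in any droplet, and its cells had a median of 4008 and 2312.5 UMIs against 7156.5 and 4016.5 in the 5 neuron classes.

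*Penk* was highest in the Dbh class. There its level was 1296 CPM (95% interval 1110–1504, 173 UMIs) in the untreated library and 635 CPM (481–822, 57 UMIs) in the 4OH-tamoxifen library. It was found in all 7 untreated cells, with 1 to 87 UMIs per cell and a median of 21, and in 9 of 15 cells of the other library, with 0 to 23 UMIs and a median of 1. The 22 cells of this class held 27.0% of all *Penk* UMIs. *Th*, which encodes the enzyme that starts catecholamine synthesis, was found in 17 of the 22 cells and 15 of these also had *Penk*. *Slc17a6*, the vesicular glutamate transporter, was found in 15, *Slc6a2*, the noradrenaline transporter, in 7, *Pnmt*, the enzyme that makes adrenaline, in 1 and *Npy* in 0. Cells with *Penk* had a median of 9339.5 UMIs and cells without it 2550, and the part of depth in the missing cells was not tested. Relative to the other 4 neuron classes together *Penk* was 10.1 times higher (exact conditional 95% interval 8.54–12), 38.3 times in the untreated and 4.89 times in the 4OH-tamoxifen library, and 1.32% of all genes with enough UMIs passed a 2-fold higher limit in both. Without its 3 richest cells the level in the Dbh class was 597 CPM.

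The enkephalin precursor carries its active peptides as short repeats, each preceded by a pair of basic residues where it is cut, and most also followed by one. Enkephalins and dynorphins begin with the residues Tyr-Gly-Gly-Phe, and the codons TAN, GGN, GGN and TTN (N is any base) were searched in this order, in frame and on the coding strand alone. TTN also takes in leucine codons, so the counts over all genes include other residues. The run of 4 codons stands 7 times in *Penk* and 3 times in *Pdyn*, while 87 of 21584 coding genes (0.403%) hold it at least once and 4 hold it 3 times or more. Nociceptin begins with Phe-Gly-Gly-Phe, and the run TTN, GGN, GGN and TTN stands once in *Pnoc*, as it does at least once in 0.820% of the coding genes. The lines below give 3 of the 7 *Penk* sites, 1 *Pdyn* site and the *Pnoc* site, to show the peptide start and the basic codons before it, with the run and the codon after it in capitals, 5′ to 3′ on the coding strand. They were read from the GRCm38 genome with the GENCODE M21 annotation. All lie on the minus strand, in transcript exon 2 of 2 (*Penk*), 4 of 4 (*Pdyn*) and 3 of 4 (*Pnoc*), at chr4:4134328-4134354, chr4:4133935-4133961, chr4:4133842-4133868, chr2:129688124-129688150 and chr14:65404872-65404898.
Penk site 1: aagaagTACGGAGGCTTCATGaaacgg
Penk site 6: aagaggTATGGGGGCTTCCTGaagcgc
Penk site 7: aaaagaTACGGGGGCTTTATGcggttc
Pdyn site 2: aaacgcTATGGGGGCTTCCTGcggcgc
Pnoc site 1: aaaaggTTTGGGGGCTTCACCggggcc
Penk site 6 and Pdyn site 2 share the same 15 capital bases. The genes themselves lie at chr4:4133531-4138819 (*Penk*, ENSMUSG00000045573), chr2:129686565-129699844 (*Pdyn*, ENSMUSG00000027400) and chr14:65400673-65425472 (*Pnoc*, ENSMUSG00000045731). *Penk* overlaps A830012C17Rik on the other strand, *Oprm1* overlaps Gm10945 and Ipcef1 in the same way, and the strand setting of the counting is not given in the sources used here.

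**Figure D1:**
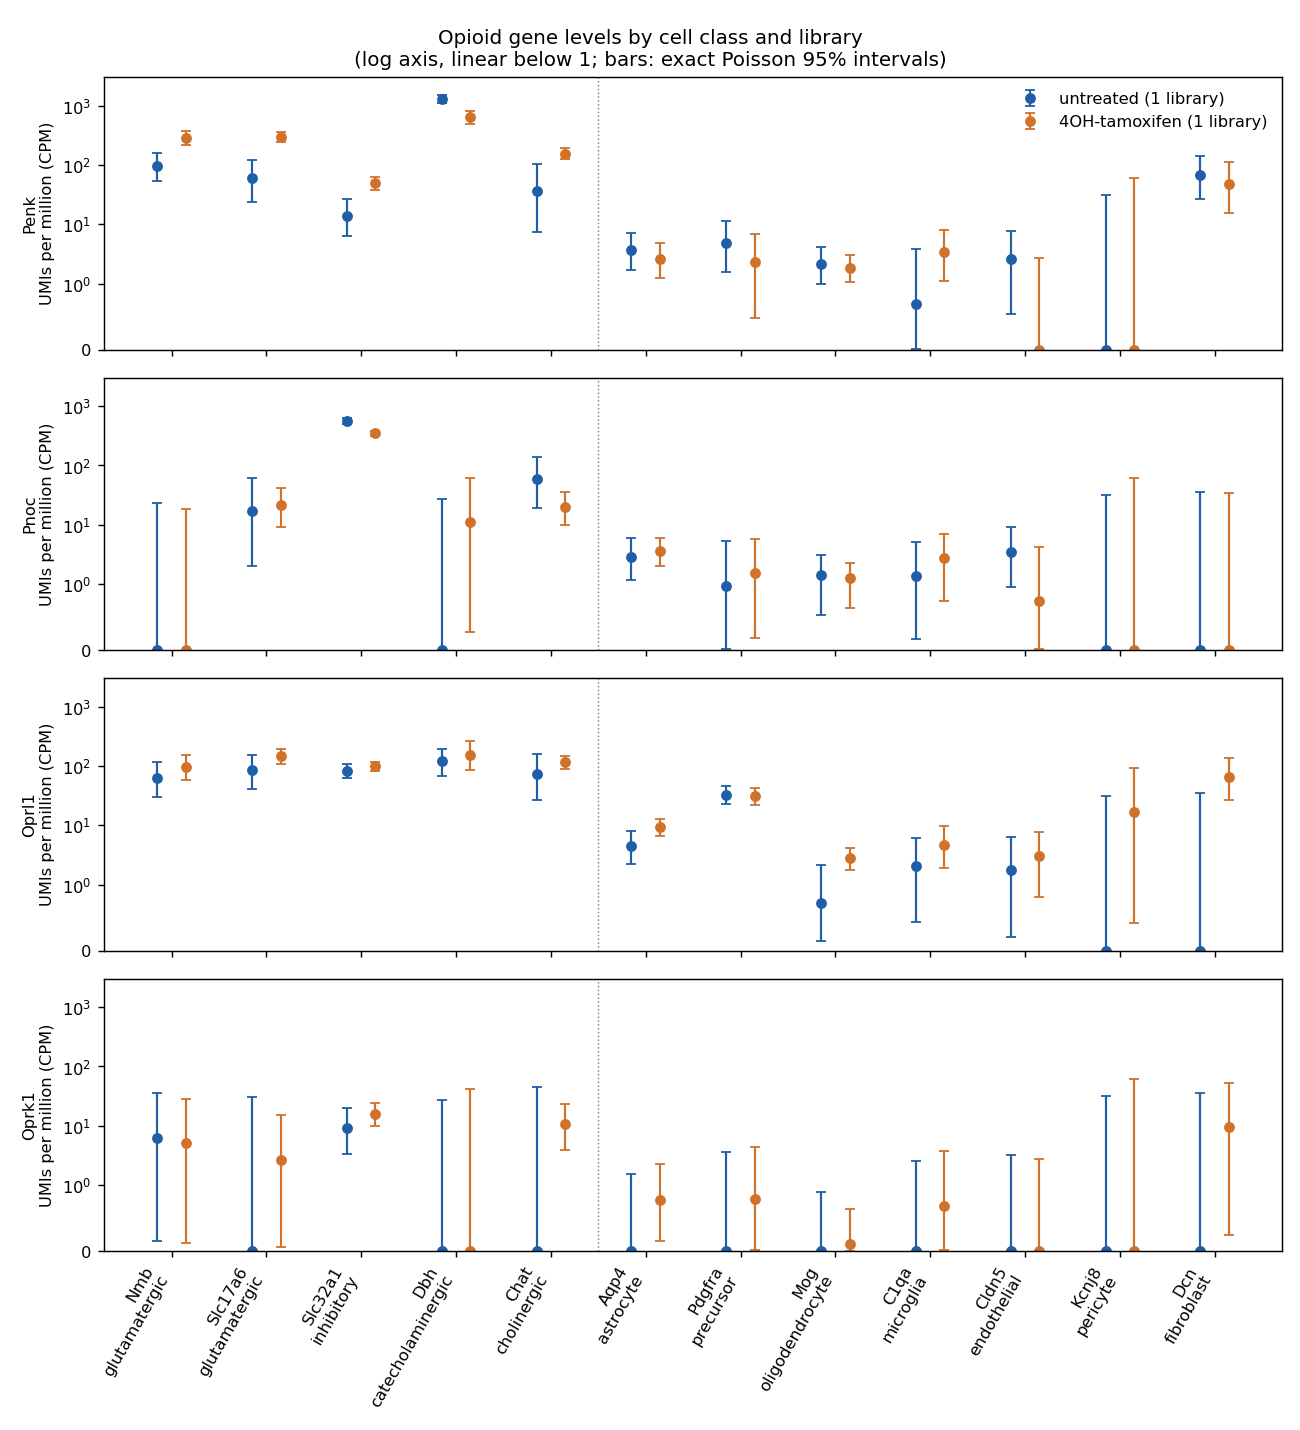
Level of the 4 opioid genes that passed the UMI minimum, in CPM (log axis, linear below 1), in 12 cell classes of the untreated and the 4OH-tamoxifen library, with neuron classes left of the dotted line. Points are class sums and bars exact Poisson 95% intervals. *Penk* is highest in the Dbh class (1296 and 635 CPM), *Pnoc* in the Slc32a1 class (558 and 349 CPM), and *Oprl1* is spread over all 5 neuron classes and the Pdgfra class.

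In both glutamatergic classes *Penk* was also present. In the Nmb class it stood at 94.7 CPM (53.0–156, 15 UMIs) in the untreated and 286 CPM (216–371, 56 UMIs) in the 4OH-tamoxifen library, and was found in 9 of 24 cells (37.5%) and 12 of 54 cells (22.2%). Cells were also thinned to 2000 UMIs each, in a single random draw that leaves out cells with fewer UMIs. The shares were then 8.70% (exact binomial 95% interval 1.07–28.0) and 21.7% (10.9–36.4), so their order turned, with intervals that overlap. In the Slc17a6 class the values were 59.3 CPM (23.8–122, 7 UMIs) and 294 CPM (241–354, 109 UMIs), in 3 of 17 and 11 of 73 cells. The 4OH-tamoxifen level was the higher in both classes and the intervals did not overlap, but they leave out the spread between cells. In the Nmb class of that library 26 of the 56 UMIs sat in 3 cells. The *Penk* UMIs of the Slc17a6 class sat in few cells, since 5 cells with 10 or more UMIs held 85 of the 109, and without its 3 richest cells the level over both libraries fell from 237 to 115 CPM. In the Nmb class it fell from 200 to 131 CPM. When classes were taken from clusters in place of gates, the Slc17a6 class had only 7.94 CPM of *Penk*. Between the Nmb and Slc17a6 classes the ratio was 0.845 (0.620–1.15), with 1.6 (0.613–4.63) untreated and 0.973 (0.692–1.36) in the other library, and not past 2-fold, where 1.3% of genes were higher in both libraries by that limit.

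Inhibitory neurons had little *Penk*. The Slc32a1 class stood at 13.9 CPM (6.37–26.5, 9 UMIs) untreated and 49.1 CPM (37.8–62.7, 64 UMIs) in the 4OH-tamoxifen library, with *Penk* in 10.0% and 9.63% of cells against 0.292% and 0.874% in the C1qa class. Thinned to 2000 UMIs per cell, no untreated cell and 6.41% of the others had it, and the untreated cells had been the deeper, with a median of 7724.5 against 4012 UMIs. No cell of the class had more than 6 UMIs. Relative to the 2 glutamatergic classes together, the level was 0.169 times as high (0.127–0.223), 0.175 times untreated and 0.169 times with 4OH-tamoxifen. The ratio thus passed the 2-fold limit downward in each library, as did 1.1% of the 10130 genes tested. With classes from clusters it was 0.415, and with at most 10% mitochondrial UMIs it was 0.100.

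The Chat class showed a few rich cells. *Penk* stood at 36.2 CPM (7.46–106, 3 UMIs) in the untreated and 155 CPM (124–191, 86 UMIs) in the 4OH-tamoxifen library, and 68 of the 86 UMIs came from 3 of 87 cells, 46 from a single cell. The ratio to the inhibitory and glutamatergic classes together was 1.5 (1.16–1.91) and not past 2-fold, above the 1.08 and 1.26 of the libraries taken alone, and it turned to 0.609 without the 3 richest cells of each class and to 0.113 with at most 10% mitochondrial UMIs. In astrocytes, precursors and oligodendrocytes *Penk* was at most 4.86 CPM untreated and 2.61 CPM in the other library, next to 0.701 and 3.40 CPM in the C1qa class. The Dcn class (fibroblasts, 26 and 32 cells) was the exception outside neurons, with 67.7 CPM (27.2–139) from 7 UMIs in 3 cells, 5 of them in 1 cell, and 47.4 CPM (15.4–111) from 5 UMIs in 5 cells. That was 50.6 times (13.7–280) the level in endothelial cells and pericytes, where 3 UMIs were found in all, and 28.2 times (6.43–169) in the untreated library. In the 4OH-tamoxifen library the endothelial cells and pericytes had 0 UMIs, so no ratio could be given. The UMIs of both sides together were below the 20 asked of a gene, so *Penk* was not called here. Among the genes with enough UMIs 4.07% were past 2-fold in that direction. Over all neurons and glia *Penk* was 66.2 times higher in neurons (50.5–88.3), past 2-fold in both libraries as were 13.1% of genes, with 37.9 after thinning each cell to 2000 UMIs and 482 with free RNA subtracted.

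**Figure D2:**
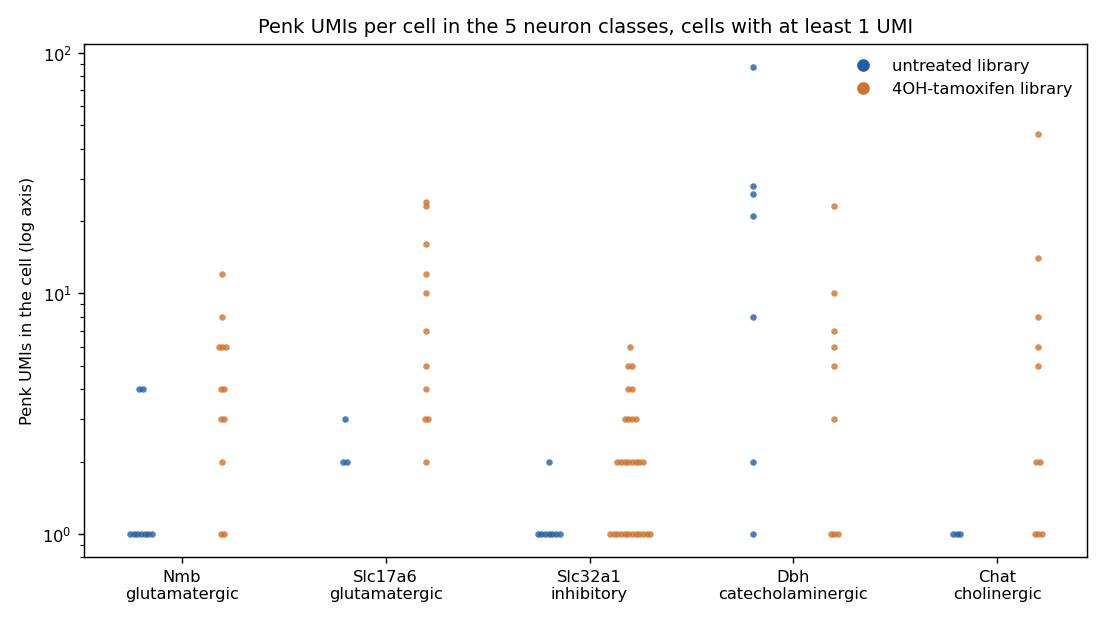
*Penk* UMIs in single cells of the 5 neuron classes (log axis), for cells with at least 1 UMI, by library, where each point is a cell. Counts reach 87 in the Dbh class and 46 in the Chat class and stay at 6 or below in the Slc32a1 class.

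*Penk* varied within the Nmb class together with *Gal*, which encodes the peptide galanin. Cells of the class were split by at least 1 *Gal* UMI into 40 with a median of 4391.5 UMIs per cell and 38 with 3801.5. In the untreated library *Penk* was found in 8 of 16 cells with *Gal* and 1 of 8 without it, at 147 and 15.9 CPM. In the 4OH-tamoxifen library it was found in 10 of 24 and 2 of 30 cells, at 569 and 29.2 CPM. In both libraries the cells with *Gal* were thus the higher, and over both the shares were 45.0% (exact binomial 95% interval 29.3–61.5) and 7.89% (1.66–21.4) and the CPM ratio 14.7 (5.49–55.6). *Oprl1* went the other way in level, with 58.3 CPM in cells with *Gal* and 109 CPM in cells without it, but the interval of that ratio (0.537, 0.229–1.2) includes 1. With the split set at 10 *Gal* UMIs (26 and 52 cells) the pooled *Penk* ratio was 5.09 (2.91–9.37). Each library alone gave a higher *Penk* ratio, 12.1 (1.83–510) for untreated cells and 7.11 (3.89–13.6) for 4OH-tamoxifen cells. Of the 26 cells 14 were untreated, and of the 52 cells 10. The pooled *Oprl1* ratio was 0.257 (0.0649–0.743), an interval that does not include 1. By library it was 0.369 and 0.158, untreated first, with intervals that include 1. Read from the other side, the 12 cells of the class with at least 2 *Penk* UMIs, 2 of them untreated, had 11946 CPM of *Gal* and 2054 CPM of *Nmb*, and the 57 cells with no *Penk* had 1725 CPM of *Gal* and 8373 CPM of *Nmb*, the peptide gene used in the gate. *Prph*, which encodes peripherin, stood at 394 CPM over the 12 cells, 9 of which had it, and at 37.9 CPM over the 57, 9 of which had it. The split by *Gal* was chosen after these values were seen, and *Prph* was picked from a longer list of genes in the same way.

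**Figure D3:**
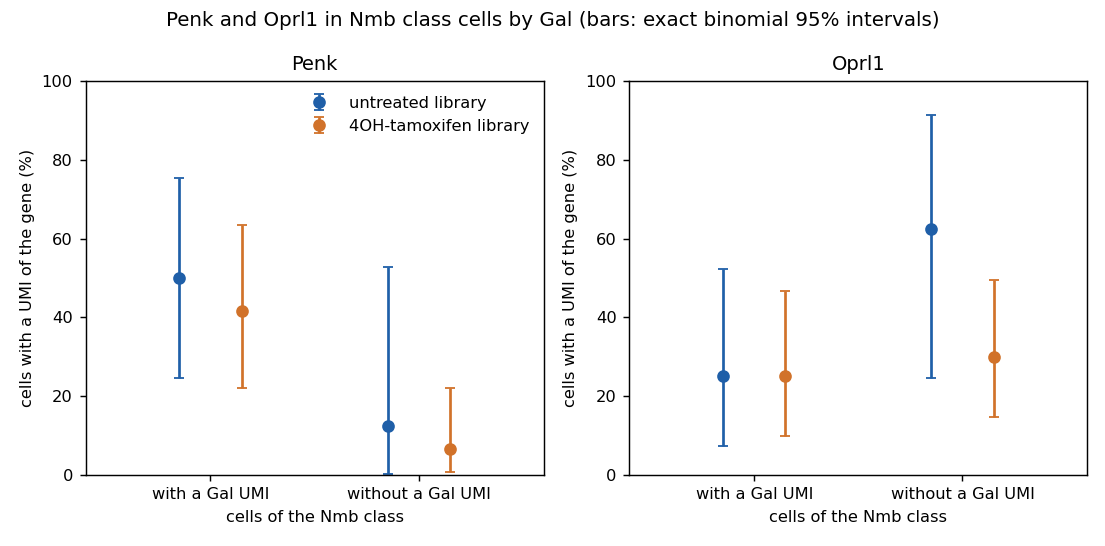
Share of cells of the Nmb class with a UMI of *Penk* (left) and *Oprl1* (right), in cells with and without a *Gal* UMI, by library, with exact binomial 95% intervals. *Penk* is found in 8 of 16 and 10 of 24 cells with *Gal* and in 1 of 8 and 2 of 30 cells without it.

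*Pnoc*, the nociceptin precursor, was highest in inhibitory neurons. In the Slc32a1 class it stood at 558 CPM (501–618, 360 UMIs) in the untreated and 349 CPM (318–383, 455 UMIs) in the 4OH-tamoxifen library. It was found in 62 of 80 cells (77.5%) and 149 of 301 cells (49.5%), against 0.585% and 0.699% in the C1qa class, and in 55.0% and 35.6% once each cell was thinned to 2000 UMIs. The untreated library was the higher in level and in both shares, and its inhibitory cells were the deeper, as given above. In the Nmb class no cell had a *Pnoc* UMI, 0 of 78, where 3 cells would be 3.85% and the exact binomial 95% upper limit on cells with a UMI is 4.62%. The Slc17a6 class had 16.9 and 21.6 CPM from 10 UMIs, the Dbh class 1 UMI, and the Chat class 60.3 CPM (5 UMIs) and 19.8 CPM (11 UMIs). Relative to the glutamatergic classes *Pnoc* was 35.3 times higher in inhibitory neurons (19.1–73.8), 77.1 times untreated and 24.8 times in the 4OH-tamoxifen library, past the 2-fold limit in each as were 0.711% of genes. Over the alternatives it ran from 21.6, with at most 10% mitochondrial UMIs, to 108, with at least 2 UMIs asked of the transmitter marker. In cholinergic neurons it was 0.0847 times (0.0482–0.138) the level in the inhibitory and glutamatergic classes together, 0.154 and 0.080 in the 2 libraries and past 2-fold downward in each, as were 3.29% of genes. Neurons exceeded glia 119 times (88.5–163), 181 times untreated and 92.8 times in the 4OH-tamoxifen library, past 2-fold in each as were 13.1% of genes.

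**Figure D4:**
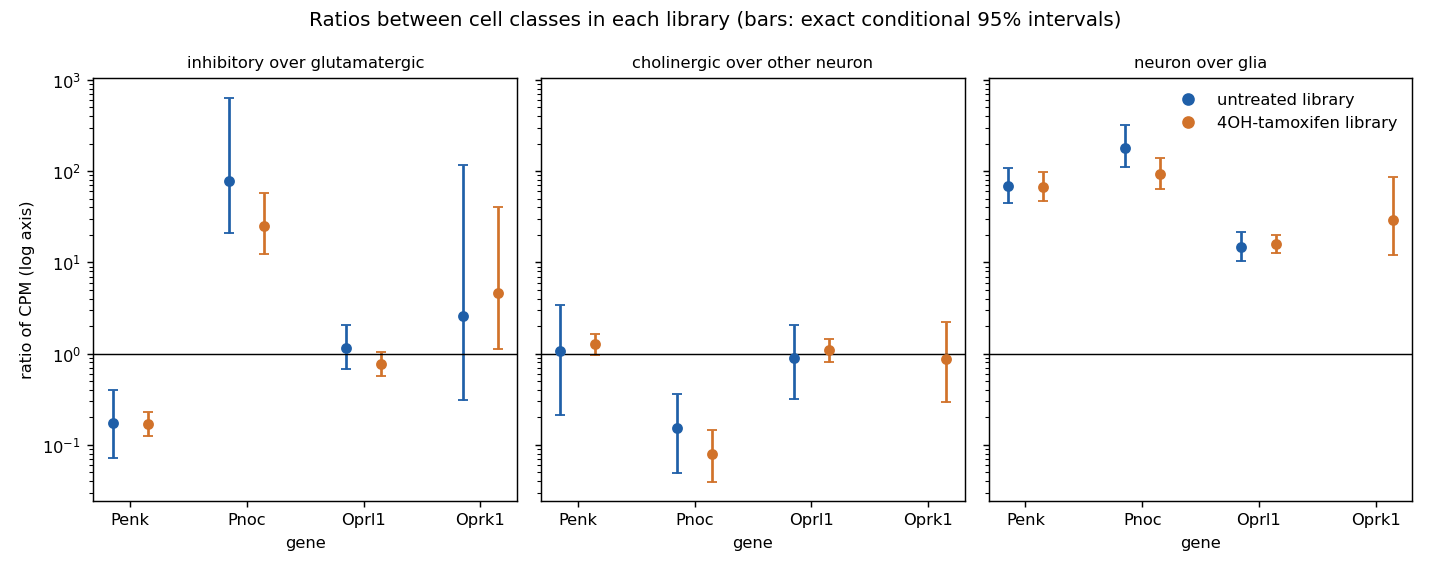
Ratio of CPM between cell classes (log axis) for 4 opioid genes in each library, with exact conditional 95% intervals, for inhibitory over glutamatergic neurons, cholinergic over the inhibitory and glutamatergic neurons, and all neurons over glia. *Pnoc* lies above the line at 1 in the first panel (77.1 and 24.8) and *Penk* below it (0.175 and 0.169), and a missing point is a ratio with 0 UMIs on a side.

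*Pdyn*, the dynorphin precursor, gave few UMIs. Its 19 UMIs came from 19 cells with 1 UMI each, of which 3 were in the Slc32a1 class, 2 in the Nmb class, 1 each in the Dbh and Chat classes, 3 in the Aqp4 class (astrocytes), 2 in the Mog class (oligodendrocytes) and 7 in cells of no class. The 5 neuron classes together stood at 1.92 CPM (0.770–3.95) and the 4 glial classes at 0.206 CPM (0.0670–0.482), with intervals that did not overlap, and the gene was too low for a call.

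Inhibitory neurons differed among themselves in these genes. Clustering of the 381 cells without the opioid genes gave 4 clusters, which are named by number and leading genes. *Pnoc* was highest in cluster 3 (*Fst*, *Nwd2*, *Igfbp5*), at 929 CPM untreated and 656 CPM in the 4OH-tamoxifen library, and in cluster 4 (*Cck*, *Tfap2b*, *Pnmt*), at 684 and 599 CPM. It was found in all 13 and all 15 untreated cells of these clusters. Cluster 1 (*Prox1*, *C1ql2*, *Calca*) had 515 and 301 CPM, and cluster 2 (*Nxph1*, *Sncg*, *Nefh*) the least, 155 and 125 CPM. *Penk* was highest in cluster 2, at 38.6 CPM (5 UMIs) and 97.4 CPM (46 UMIs), and in cluster 1 it came to 2 UMIs in 124 cells. Cluster 2 thus had the least *Pnoc* and the most *Penk* in both libraries, and *Gad2* was found in 74.2% of its cells against 95.9% to 96.8% in the other clusters. *Oprl1* was highest in cluster 3, at 183 and 150 CPM, followed by cluster 2 at 77.3 and 129 CPM, whereas clusters 1 and 4 had 40.7 to 68.4 CPM.

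**Figure D5:**
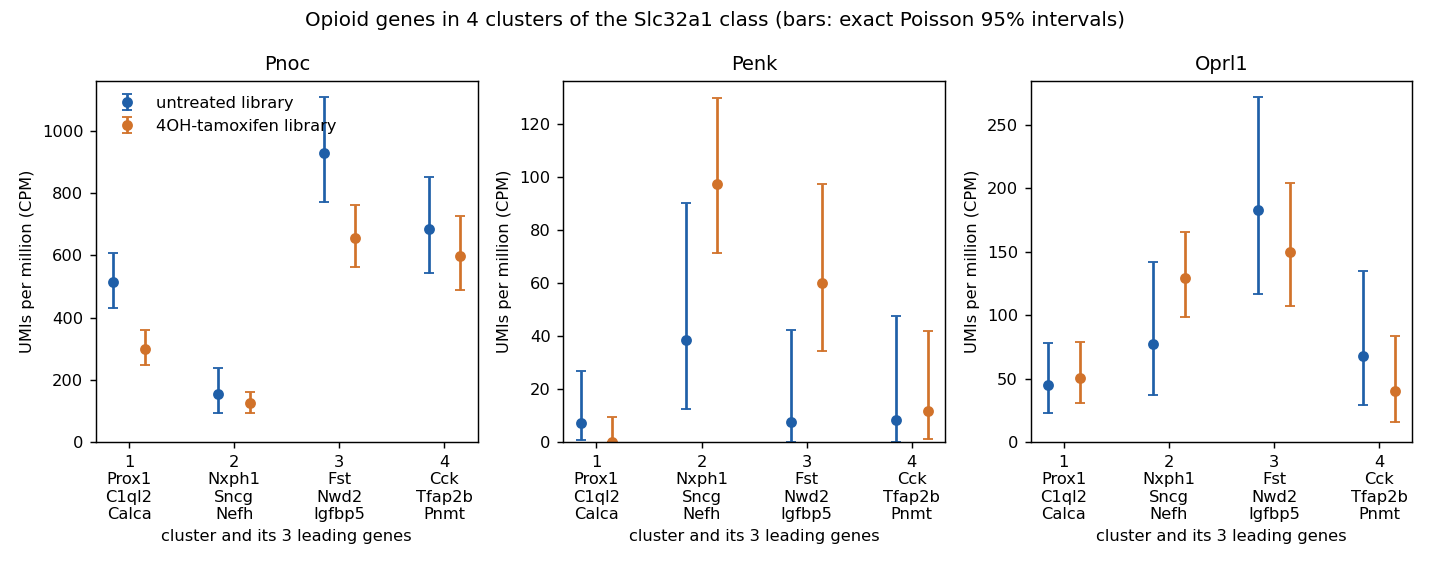
*Pnoc*, *Penk* and *Oprl1* in CPM in 4 clusters of the Slc32a1 class, by library, with exact Poisson 95% intervals. *Pnoc* falls to 155 and 125 CPM in cluster 2, where *Penk* reaches 38.6 and 97.4 CPM, and *Oprl1* is highest in cluster 3.

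The interneuron markers of this region split the inhibitory cells further, by at least 1 UMI except where a number is given. Cells with at least 2 UMIs of *Sst* (somatostatin, 129 cells) had 537 CPM of *Pnoc* and the other 252 cells 347 CPM, a ratio of 1.55 (1.35–1.78) that was 1.56 untreated and 1.42 with 4OH-tamoxifen. Cells with *Pvalb* (parvalbumin, 34 cells, of which 3 untreated) had 159 CPM against 446 CPM, a ratio of 0.356 (0.239–0.512) that was 0.321 and 0.405. *Sst* cells were the higher and *Pvalb* cells the lower in both libraries. For *Cck* (cholecystokinin, 60 cells) the *Pnoc* ratio was 1.37 over both libraries but 0.963 untreated and 1.71 in the 4OH-tamoxifen library, so its direction differed between them. *Ndnf* (35 cells, 0.424) and *Calb2* (27 cells, 0.534) cells were also lower in *Pnoc* over both libraries, with 0.187 and 0.122 untreated but 0.618 and 0.991 in the 4OH-tamoxifen library. *Nos1*, which encodes neuronal nitric oxide synthase, split the other genes. The 51 cells with *Nos1* had 168 CPM of *Oprl1* against 78.6 CPM in the other 330 cells (ratio 2.14, 1.53–2.96, with 2.95 and 1.87 in the libraries), and *Penk* was 2.64 times higher in them (1.56–4.37, with 2.95 and 2.99), while *Pnoc* was 0.552 times as high. *Oprl1* was lower in cells with *Reln* (0.477, 0.311–0.709) and with *Sst* (0.648, 0.459–0.902). Cells with a marker had a median of 4868 (*Sst*), 5234 (*Nos1*) and 4532.5 UMIs (*Pvalb*) against 4014, 4245 and 4264 without it, and the part of depth in these splits was not tested.

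*Oprl1*, the nociceptin receptor gene, was present in every neuron class. Untreated and 4OH-tamoxifen values were 63.1 CPM (30.3–116) and 97.0 CPM (58.4–151) in the Nmb class and 84.7 CPM (40.6–156) and 146 CPM (109–190) in the Slc17a6 class. They were 83.6 CPM (62.8–109) and 98.3 CPM (82.0–117) in the Slc32a1 class. The Dbh class had 120 CPM (68.5–195) and 156 CPM (85.2–262), and the Chat class 72.4 CPM (26.6–157) and 117 CPM (90.2–149). In both libraries the order of the levels began with Dbh and Slc17a6 and ended with Nmb, the middle places were exchanged between Chat and Slc32a1, and the intervals of neighbours overlap. No ratio between neuron classes passed 2-fold in both libraries, with 0.847 (0.656–1.10) for inhibitory over glutamatergic (1.47 with classes from clusters), 1.13 (0.856–1.47) for cholinergic over the other neurons and 1.33 (0.885–1.94) for the Dbh class over the others. For the Nmb over the Slc17a6 class the ratio was 0.626 (0.389–0.984), an interval below 1, with 0.745 and 0.667 in the libraries, whose own intervals include 1. In the Slc32a1 class *Oprl1* was found in 42.5% and 29.6% of cells against 0.877% and 1.22% in the C1qa class, and in 12.5% and 15.3% after thinning, where the untreated library was no longer the higher. Neurons exceeded glia 15.9 times (13.1–19.3), with 10.3 times as the mean of each cell's CPM and 32.8 times with free RNA subtracted.

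Among glia *Oprl1* was highest in the Pdgfra class, the oligodendrocyte precursors. Its level there was 33.0 CPM (22.9–46.1, 34 UMIs) in the untreated and 30.7 CPM (21.8–42.0, 39 UMIs) in the 4OH-tamoxifen library, and the libraries differed by less than counting error (ratio 1.08, 0.659–1.75). Astrocytes had 4.57 and 9.38 CPM, oligodendrocytes 0.727 and 2.77 CPM and the C1qa class 2.1 and 4.76 CPM. The precursors thus stood above the other glia in both libraries, 8.29 times over both (5.97–11.5), 15.5 and 6.40 times in each, and 6.22% of genes passed 2-fold in that direction. With free RNA subtracted the ratio was 74.2. The receptor was found in 10.7% and 5.99% of precursors, 6.71% and 6.92% after thinning, at a median depth of 3195.5 and 1881 UMIs, which is below that of the C1qa class. Of the 3 markers listed for precursors, 2 were highest in them and *Cspg4* was highest in pericytes. Of the fibroblasts 5 had *Oprl1*, all in the 4OH-tamoxifen library (66.4 CPM, 7 UMIs) and none in the untreated.

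*Oprk1*, the kappa receptor gene, had 27 of its 63 UMIs in the inhibitory class, with 6 in neurons and 14 in other cells without a class. The Slc32a1 class had 9.29 CPM (3.41–20.2, 6 UMIs) and 16.1 CPM (9.98–24.6, 21 UMIs), in 23 of 381 cells (6.04%). The Chat class had 0 and 6 UMIs, the Nmb class 2, the Slc17a6 class 1 and the Dbh class 0, and the glial classes 6 in all. The inhibitory level was 3.90 times the glutamatergic one (1.2–20.1), 2.57 and 4.57 times in the libraries, which was not past 2-fold once 10 CPM was added to both sides.

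The mu and delta receptor genes were near the limit of detection. *Oprm1* gave 7 UMIs in 6 inhibitory cells (1.57%), 5 of the 7 in cluster 2, and 0 in the other neuron classes, with 1 UMI in the Mog class and 7 in cells of no class. *Oprd1* gave 2 UMIs each in the Slc17a6 and Chat classes, 1 in the Slc32a1 class and 3 elsewhere. In the Nmb class 0 of 78 cells had a UMI of either receptor gene, for each of which the exact upper limit is again 4.62%.

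Peptide and receptor genes were also read together in each inhibitory cell. A peptide gene was detected in 233 of 381 cells (61.2%), a receptor gene in 142 (37.3%) and both in 89 (23.4%), where the shares multiply to 86.8 cells, against both in 1 of 914 cells (0.109%) of the C1qa class. *Pnoc* and *Oprl1* were found together in 75 cells, where their shares multiply to 68.1 cells. By library they met in 25 untreated cells, below the 26.4 that the shares give, and in 50 cells with 4OH-tamoxifen, above the 44.1 they give, so the direction differed. *Penk* and *Pnoc* were found together in 15 cells, where their shares give 20.5. Cells with *Pnoc* had a median of 4492 UMIs and cells without it 4017, and the part of depth and of doublets was not tested.

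Between the libraries, 2 values of the opioid genes passed the 2-fold limit in the classes with at least 30 cells in each. *Penk* in the inhibitory class was 0.284 times as high in the untreated library (0.124–0.573), where 0.895% of 9160 genes were lower by that limit, and in the glutamatergic classes together 0.273 times (0.167–0.428), where 3.65% of 6794 genes were lower. With at most 10% mitochondrial UMIs these ratios were 0.0944 and 0.121. Thinned to 2000 UMIs, in a single random draw, no *Penk* UMI was left of the 9 in the untreated inhibitory cells. *Pnoc* in inhibitory cells was 1.6 times higher untreated (1.39–1.84) and *Oprl1* 0.851 times (0.607–1.18), neither past 2-fold. *Oprl1* in the glutamatergic classes was 0.562 times (0.324–0.932), with 0.316 without the 3 richest cells and 0.924 with classes from clusters. In neurons left without a class, *Penk* was 1.92 times (1.11–3.23) as high in the untreated library, the other direction. No opioid gene with enough UMIs passed in astrocytes, precursors, oligodendrocytes or neurons without a class, where 0.224%, 0.746%, 0.0606% and 2.56% of genes passed in either direction. In microglia and endothelial cells, where 1.25% and 0.623% of genes passed, no opioid gene had enough UMIs. These ratios compare 2 libraries and not the conditions.

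Genes with the pattern most like each opioid gene were ranked over 18 class and library profiles by Pearson's r of log2(CPM + 10), among 8102 genes. For *Penk* they were *Pld5* (0.955), *Rab9b* (0.952) and *Lhfpl5* (0.949). For *Pnoc* they were *Gpr101* (0.973), *Pax2* (0.964), a transcription factor of inhibitory lineages, and *Skor1* (0.962). For *Oprl1* they were *Rab3c* (0.987), *Tenm1* (0.986) and *Slc6a15* (0.986). The profiles of a library share its depth, and most of them are of non-neuronal cells, so the values are a description. Profiles needed 30 cells, which leaves out the Dbh class of both libraries, where *Penk* was highest, and the untreated Nmb, Slc17a6, Chat and Dcn classes.

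The machinery that makes opioid peptides, breaks them down and carries their signal was read as a list of 45 genes. Of these, 42 had enough UMIs in neurons and glia, and 19 were higher and 3 lower in neurons past 2-fold in both libraries, next to 13.1% and 6.7% of all genes. Their median log2 ratio was 1.10 and that of all genes 0.09. Of 8 processing genes 5 were higher in neurons. The prohormone convertase gene *Pcsk2* had 225 and 181 CPM in neurons and 27.1 and 17.2 CPM in glia, and its chaperone gene *Scg5* 602 and 560 against 75.2 and 58.1 CPM. *Cpe* (2.30 times), *Pcsk1n* (5.79 times) and *Pam* (5.34 times) were also higher, and *Ctsl*, a lysosomal protease gene, was lower (0.365 times). *Pcsk1*, the other convertase, had 9.85 CPM in neurons and 0.248 CPM in glia and did not pass with 10 CPM added. Among 6 tested peptidase genes *Ace* was higher (14.8 times). *Mme*, which encodes the enkephalin-degrading neprilysin, stood at 4.10 CPM in neurons and 0.536 CPM in glia and did not pass.

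For the signal itself, the G protein genes *Gnao1* (3.44 times) and *Gnaz* (10.6 times) were higher in neurons and *Gnai2* lower (0.353 times), of 5 tested. Of 7 effector genes 4 were higher, which were the potassium channel gene *Kcnj3* (9.62 times), the calcium channel genes *Cacna1a* (6.28 times) and *Cacna1b* (15 times) and the adenylyl cyclase gene *Adcy1* (13.6 times). Of 11 genes that end the signal or carry receptors 6 were higher, among them *Arrb1*, an arrestin (3.73 times), *Rgs17* (16.0 times) and *Gprasp1* (15.7 times), and *Wls* was lower (0.160 times). *Pomc*, the precursor of beta-endorphin, had 11.5 CPM in neurons and 10.5 CPM in glia and was not called.

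The same list was read between neuron classes. In inhibitory over glutamatergic neurons 1 of 39 was higher and 4 were lower, next to 0.711% and 1.1% of all genes. *Pcsk2* had 136 and 97.5 CPM in inhibitory and 495 and 340 CPM in glutamatergic neurons, and *Pam* 52.7 and 95.9 against 228 and 275 CPM. The lower genes also included *Rgs9* (0.142 times) and *Opcml* (0.350 times), a cell adhesion gene named for opioids, and the higher gene was *Ogfrl1* (3.17 times). In cholinergic neurons 4 of 40 were lower, *Adcy1*, *Arrb1*, *Rgs9* and *Rgs17* (0.162 to 0.410 times), and 0 higher, next to 3.29% and 3% of all genes. Between the libraries only *Rgs4* was past 2-fold in any class tested. In pericytes, where 7 genes of the list were tested, it had 704 CPM untreated and 314 CPM in the 4OH-tamoxifen library, and 6.85% of all genes were higher by that limit. In the glutamatergic classes, where 34 were tested, it had 25.3 and 61.7 CPM, and 3.65% of all genes were lower by that limit.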

How the data were processed

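The authors converted the reads with bcl2fastq 2.18.0.12 and counted UMIs per gene and barcode with Cell Ranger 2.2.0 on mm10 (GRCm38), and the deposited values are raw counts without normalization. Here doublets were marked per library (6 and 544) with scanpy 1.11.5, at unequal automatic score limits of 0.512 and 0.179, and removed. Cells with under 800 genes, over 50 hemoglobin UMIs or over 20% mitochondrial UMIs were also removed. Neurons needed at least 2 of *Snap25*, *Syp*, *Tubb3* and *Elavl2*, and 1 UMI of *Slc32a1*, *Slc17a6*, *Chat* or *Dbh* or 2 of *Nmb*, without the markers of the other classes, except that *Slc17a6* was allowed in the Dbh and Nmb classes and *Nmb* in the Dbh and Chat classes. Other cells needed 2 UMIs of *Aqp4*, *Pdgfra*, *Mog*, *C1qa*, *Cldn5*, *Kcnj8* or *Dcn* and at most 1 of the rest. Counts were summed by class. A gene was called when it had 20 UMIs and passed 2-fold with 10 CPM added to both sides, in each library where both were used. The intervals are exact (scipy 1.17.1, 95%). They were tested only on data simulated with the counting error they assume, which has no spread between cells. A share of 0 is given the limit that 3 cells would set. Inhibitory cells were clustered on 25 principal components at a Leiden resolution of 0.7 (leidenalg 0.10.2). The opioid genes, the pathway list and the markers are named, with the 3 most similar genes for each opioid gene with 100 UMIs and the 3 leading genes of each cluster. Members and lists were chosen with earlier results of these data known. Alternatives changed the cell filters, gates, classes, depth, pooling, free RNA and libraries. Thinning to 2000 UMIs was a single random draw from each cell and left out cells with fewer UMIs. The run without the 3 richest cells, the ratios for the Dbh, Pdgfra and Dcn classes and the Nmb over Slc17a6 ratio were chosen after seeing the data. With 1 library per condition, no p-value was computed.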

Additional observations from a re-analysis of the deposited data

Results flagged for a closer look

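*Oprl1* went in opposite directions in the libraries for 2 ratios, and the differences were not tested. Inhibitory over glutamatergic, it was 1.16 (0.681–2.04) untreated and 0.763 (0.568–1.03) in the 4OH-tamoxifen library. Cholinergic over the inhibitory and glutamatergic neurons, it was 0.902 (0.321–2.06) and 1.09 (0.809–1.45). All 4 intervals include 1.

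Cells that no gate took up also held opioid transcripts at levels above the C1qa class. They enter no comparison between gated classes above, though the classes from clusters include such cells. In the neurons without a class *Penk* was 16.9 times higher (7.36–47.6), *Pnoc* 31.5 times (14.1–87.4), *Oprl1* 16.8 times (8.82–36.0) and *Oprk1* 8.93 times (1.08–411), the last on 6 UMIs against 1. In the other cells without a class *Penk* was 4.5 times higher (2.01–12.5), *Pnoc* 6.49 times (2.93–17.9) and *Oprl1* 4.51 times (2.41–9.54).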

How the results depend on the processing

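Over 34 values and 20 settings, 366 of 443 alternatives kept the value within its interval or count limit, 73 moved it and 4 turned it, where turned means crossing 1 from a ratio whose own interval excludes 1. All 4 are the cholinergic over other neuron ratio of *Penk* (1.5), which was 0.113 with at most 10% mitochondrial UMIs, 0.842 thinned to 2000 UMIs, 0.877 as the mean of each cell's CPM and 0.609 without the 3 richest cells. No paired analysis was possible because each condition has 1 library. Doublet removal, a lower or higher minimum of genes and the lack of a neuron gene requirement moved no value. The cause was not tested for any of the shifts below, and thinning gave no value for *Penk* between libraries in inhibitory cells.

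With at most 10% mitochondrial UMIs *Penk* was 0.100 for inhibitory over glutamatergic, 0.0944 and 0.121 for untreated over 4OH-tamoxifen in inhibitory and glutamatergic cells, and 1193, 326, 387 and 14.4 CPM in the Dbh, Nmb, Slc17a6 and Chat classes, while *Pnoc* was 187 for neuron over glia and *Oprl1* 86.5 CPM in the Chat class. With 3 UMIs of a glial marker *Oprl1* was 20.9 for neuron over glia and 11.9 for precursor over other glia. With 2 UMIs of a transmitter marker *Pnoc* was 108 for inhibitory over glutamatergic and 0.0281 for cholinergic over other neurons, and *Penk* 305 CPM in the Slc17a6 class. With 3 of 4 neuron genes *Penk* was 0.123 for inhibitory over glutamatergic. With classes from clusters *Penk* was 0.415 for that ratio, 1.09 for cholinergic over other neurons, 0.429 for untreated over 4OH-tamoxifen in glutamatergic cells and 7.94, 50.3 and 71.1 CPM in the Slc17a6, Slc32a1 and Chat classes, *Oprl1* was 1.47 for inhibitory over glutamatergic and *Pnoc* 373 CPM in the Slc32a1 class.

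Thinned, *Oprl1* was 0.794 for cholinergic over other neurons, 11 for neuron over glia and 70.7 CPM in the Chat class, *Penk* was 37.9 for neuron over glia and 675 and 75.8 CPM in the Dbh and Chat classes, and *Pnoc* and *Oprl1* were found in 39.9% and 14.7% of inhibitory cells. As the mean of each cell's CPM *Pnoc* was 0.0479 for cholinergic over other neurons, *Penk* 41.3 and *Oprl1* 10.3 for neuron over glia, and *Penk* 659 and 82.6 CPM in the Dbh and Chat classes. With free RNA subtracted *Penk* was 482 and *Oprl1* 32.8 for neuron over glia, and *Oprl1* 74.2 for precursor over other glia. Without the 3 richest cells of each class *Penk* was 0.242 for inhibitory over glutamatergic, 39.9 for neuron over glia and 597, 131, 115 and 34.5 CPM in the Dbh, Nmb, Slc17a6 and Chat classes, *Pnoc* was 77.8 for inhibitory over glutamatergic, 0.0181 for cholinergic over other neurons and 386 CPM in the Slc32a1 class, and *Oprl1* was 0.316 for untreated over 4OH-tamoxifen in glutamatergic cells. With 2 UMIs asked of a cell, *Pnoc* was found in 39.6% and *Oprl1* in 9.19% of inhibitory cells, and *Oprl1* in 0.436% of precursors. The count of genes past 2-fold was 418 in place of 183 for inhibitory over glutamatergic with 1 CPM added, and 459 with 1 CPM added and 49 with 50 UMIs asked, in place of 99, between the libraries in inhibitory cells.

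Each library alone gave 24.8 to 77.1 (*Pnoc*) and 0.763 to 1.16 (*Oprl1*) for inhibitory over glutamatergic, 1.08 to 1.26 (*Penk*) and 0.080 to 0.154 (*Pnoc*) for cholinergic over other neurons, 92.8 to 181 (*Pnoc*) for neuron over glia and 6.40 to 15.5 (*Oprl1*) for precursor over other glia. Levels ranged from 349 to 558 CPM for *Pnoc* in the Slc32a1 class, for *Penk* from 635 to 1296 in the Dbh, 94.7 to 286 in the Nmb, 59.3 to 294 in the Slc17a6, 13.9 to 49.1 in the Slc32a1 and 36.2 to 155 in the Chat class, and for *Oprl1* from 72.4 to 117 in the Chat class. *Pdyn*, *Oprm1* and *Oprd1* had too few UMIs for a ratio, and the Dbh values rest on 22 cells.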

Other observations

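The 567 neurons without a class held 127 *Pnoc* UMIs and 68 *Penk* UMIs. No transmitter marker was found in 536 of them and several in 31. The 70 cells with *Gad1* or *Gad2*, the enzymes of GABA synthesis, held 91 of the 127 *Pnoc* UMIs and 14 of the 68 *Penk* UMIs.

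In the Slc17a6 class the 14 cells with at least 2 *Penk* UMIs had 548 CPM of *Gal* and the 76 cells with none 14.9 CPM, from 2 of the 14 and 3 of the 76 cells. *Th* was found in 3 of the 14 and 0 of the 76, and *Reln* in 0 of the 14 and 27 of the 76. These genes were chosen after their values were seen.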
